A study of Mus musculus with 25 samples.

Results

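The mitochondrial ribosomal proteins build the ribosome inside mitochondria, and their messages were followed across 8 groups of mouse livers. Of 56980 genes in the deposited count table, 52073 carried a symbol, and 78 of these had a name of the form Mrpl or Mrps followed by a number. A gene was kept when it had at least 10 counts in at least 3 of the 25 libraries, which left 77 genes, 48 of the large subunit (Mrpl) and 29 of the small subunit (Mrps). The one name that was dropped, Mrpl53, had 0 counts in every library, and 88% of its exon bases are shared with other annotated genes. Pseudogenes named with -ps were left out.

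The mitochondrial ribosome translates the respiratory chain subunits that are encoded in mitochondrial DNA. Every protein of this ribosome is itself encoded in the nucleus, made in the cytosol and imported, while its ribosomal RNA comes from mitochondrial DNA. In hepatocytes, cells rich in mitochondria, the chain that it helps to build drives fatty acid oxidation and supplies the energy for gluconeogenesis and urea synthesis. Names do not follow the assembled particle in every case: in mammalian structures Mrps18a and Mrps30 lie in the large subunit, and Mrps36 is now counted as a component of the 2-oxoglutarate dehydrogenase complex. Subunits are given here by name, as the symbols assign them.

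All mice were male C57BL/6J and 8 weeks old at the start, and poly-A RNA was taken from the whole liver. Normal diet was a standard chow with water. The FAT-MASH regimen, a model of metabolic dysfunction-associated steatohepatitis, combined a high-sucrose chow with added fat and cholesterol, fructose and glucose in the water, and a weekly intraperitoneal dose of the liver toxin carbon tetrachloride. Mannose, a hexose sugar, was dissolved in the drinking water at 5% or 20% and given for 12 weeks, called prevention, or for only the final 6 weeks, called therapy. In the first batch each group had 3 libraries: a normal diet group, a FAT-MASH group without mannose, and 4 groups that received mannose on the regimen, as prevention at 5% and 20% and as therapy at 5% and 20%. The second batch, also without the regimen, held 2 more libraries of normal diet, 2 of normal diet with 5% mannose for 12 weeks and 3 of normal diet with 20% mannose for 12 weeks. The FAT-MASH controls of the mannose groups carry the diet, the sugar water and the toxin together, so these cannot be told apart, and the mannose mice on the regimen received all of them too. Replicates are biological replicates per the labels, and the labels do not say which mice shared a cage or litter.

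First-batch libraries held 31298299 to 56010646 counts and second-batch libraries 35971380 to 49752882. The 77 genes took 0.238% to 0.3% of the counts of a first-batch library and 0.238% to 0.266% of a second-batch library. Hepatocyte markers made up the liver signal as labelled, with 10 of 10 detected and summed levels of 64300 to 116000 CPM (counts scaled to library size with TMM factors within a batch) in the first batch. With 20% mannose on the regimen, markers of dividing cells and of other liver cell types also moved, and their values stand beside the results below. In bulk liver RNA, fewer cells of a type and less RNA per cell cannot be told apart. The 37 genes with names for mitochondrially encoded transcripts had 0 counts in total, so the products that this ribosome translates were not measured.

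Promoter sequences are printed for 4 members: Mrpl12, Mrps24 and Mrps26, called lower with 20% mannose prevention, and Mrps18b, called higher. The calls for Mrpl12 and Mrps18b were lost when some single libraries were left out. Each runs 5′ to 3′ from 250 bases before to 50 bases after the annotated gene start, as given by RefSeq on GRCm38.p6, a build older than the GRCm39 of the count table. Capitals mark the bases that match a searched motif on either strand.
Mrpl12, chr11:120484387-120484686, plus strand: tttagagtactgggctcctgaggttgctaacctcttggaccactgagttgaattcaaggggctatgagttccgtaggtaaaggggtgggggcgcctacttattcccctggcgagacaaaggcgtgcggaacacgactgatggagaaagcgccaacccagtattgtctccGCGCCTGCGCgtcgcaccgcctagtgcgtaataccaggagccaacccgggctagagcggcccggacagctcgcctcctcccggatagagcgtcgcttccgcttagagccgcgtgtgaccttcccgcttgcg
Mrps24, chr11:5707652-5707951, minus strand: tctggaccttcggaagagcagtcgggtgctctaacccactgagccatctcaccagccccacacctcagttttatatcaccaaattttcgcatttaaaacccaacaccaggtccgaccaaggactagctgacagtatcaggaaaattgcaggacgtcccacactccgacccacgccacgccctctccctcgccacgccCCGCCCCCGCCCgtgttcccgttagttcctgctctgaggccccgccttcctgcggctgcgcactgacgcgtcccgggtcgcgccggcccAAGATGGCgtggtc
Mrps26, chr2:130563507-130563806, plus strand: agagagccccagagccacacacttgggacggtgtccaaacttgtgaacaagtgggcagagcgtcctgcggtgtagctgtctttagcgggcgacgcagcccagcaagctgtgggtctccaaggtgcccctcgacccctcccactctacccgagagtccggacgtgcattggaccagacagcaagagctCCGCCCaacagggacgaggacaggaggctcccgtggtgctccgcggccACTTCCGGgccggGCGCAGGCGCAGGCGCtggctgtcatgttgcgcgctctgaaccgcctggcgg
Mrps18b, chr17:35916391-35916690, minus strand: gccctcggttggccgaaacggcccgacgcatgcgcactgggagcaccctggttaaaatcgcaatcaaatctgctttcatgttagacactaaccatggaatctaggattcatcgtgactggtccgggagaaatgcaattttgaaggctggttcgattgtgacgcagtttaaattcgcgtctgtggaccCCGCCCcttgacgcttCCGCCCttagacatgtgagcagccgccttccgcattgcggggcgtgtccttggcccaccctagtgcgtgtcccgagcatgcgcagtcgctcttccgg
The Mrpl12 window has 1 match to the NRF1 motif, for the factor that is a textbook regulator of nuclear genes for mitochondria. In the Mrps26 window 2 overlapping NRF1 matches lie beside 1 ETS match and 1 SP1 match. Mrps24 has 1 YY1 match after the annotated start and 2 adjoining SP1 matches before it. Mrps18b has 2 SP1 matches and none of the other motifs in these letters.

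Of the 77 genes, 68 had a promoter window in the RefSeq table. The letters searched were GCGC, any base and then TGCGC for NRF1, CCGGAAGT for ETS factors such as GABPA, AAGATGGC for YY1, CACGTG for the E-box that Myc and other factors bind, and GGGCGG for SP1, each on both strands. NRF1 letters stood in 13 of 68 windows (19.1%), against 4.78% of all 27025 promoters of the same length. ETS letters stood in 11 (16.2%, against 4% of all promoters) and YY1 letters in 12 (17.6%, against 2.88%). The E-box was found in 5 (7.35%), beside 7.24% of all promoters, and SP1 letters in 34 (50%), beside 35.9%. Among the genes called lower with 20% prevention, 6 of 20 windows had NRF1 letters, and among the other members 7 of 48 had them. A match is a description of letters and not evidence of binding.

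Levels differed widely within the set. Per kilobase of exon, Mrpl12, the stalk protein of the L7/L12 family that also binds the mitochondrial RNA polymerase, was highest at 93.5 CPM over the first batch. Mrpl34 followed at 71.2 CPM per kilobase and Mrps21 at 57.3. At the other end stood Mrpl23 at 0.398, Mrps25 at 1.62 and Mrps36 at 1.76 CPM per kilobase. These 3 low values are uncertain. Mrpl23 has a copy, Mrpl23-ps1, with a median of 1152 counts, Mrps36 has Mrps36-ps1 with a median of 167 counts, and 69.8% of the exon bases of Mrps25 are shared with Nr2c2 on the opposite strand. In all, 32 of the 77 genes share exon bases with another gene, 16 of them over more than 10% of their length, and the deposited counting names no strand option.

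Replicates of a group were close for these genes. The median coefficient of variation of a member within first-batch groups was 8.1% (range 3.09% to 22.4%), against 17.7% for the 19571 genes tested. This measure depends on the level of a gene, and the genes tested were not matched to the members in level. Large and small subunit messages kept nearly one ratio, with the summed large-subunit level 2.07 to 2.29 times the summed small-subunit level in every library of both batches.

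Summed large-subunit levels in the first batch were 2103 ± 46.8 CPM (SD, n = 3) on normal diet and 1924 ± 26.5 in FAT-MASH. They were 1816 ± 107 with 5% prevention, 1591 ± 56.7 with 20% prevention, 1893 ± 168 with 5% therapy and 1758 ± 89.6 with 20% therapy. Small-subunit sums took the same order at the ends, with 989.5 ± 19.8 CPM on normal diet, 875.2 ± 22.9 in FAT-MASH, 822.6 ± 22.1 with 5% prevention and 720.6 ± 28.1 with 20% prevention. With therapy the small-subunit sums were 871.7 ± 82.3 at 5% and 796.2 ± 47.2 at 20%. Normal diet was highest and 20% prevention lowest for both subunits, while FAT-MASH, 5% prevention and both therapy groups each lay within the larger SD of a neighbour in this order. In the second batch the sums were 1692 ± 35.4 and 781.7 ± 34 CPM (SD, n = 2) on normal diet, 1790 ± 38.9 and 834.8 ± 15.3 (n = 2) with 5% mannose, and 1684 ± 47.8 and 797.1 ± 9.14 (n = 3) with 20% mannose. As a plain share of all counts the order was another one: both subunits together took 0.259% to 0.265% in FAT-MASH, 0.238% to 0.251% with 20% prevention and 0.286% to 0.3% with 20% therapy.

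**Figure D1:**
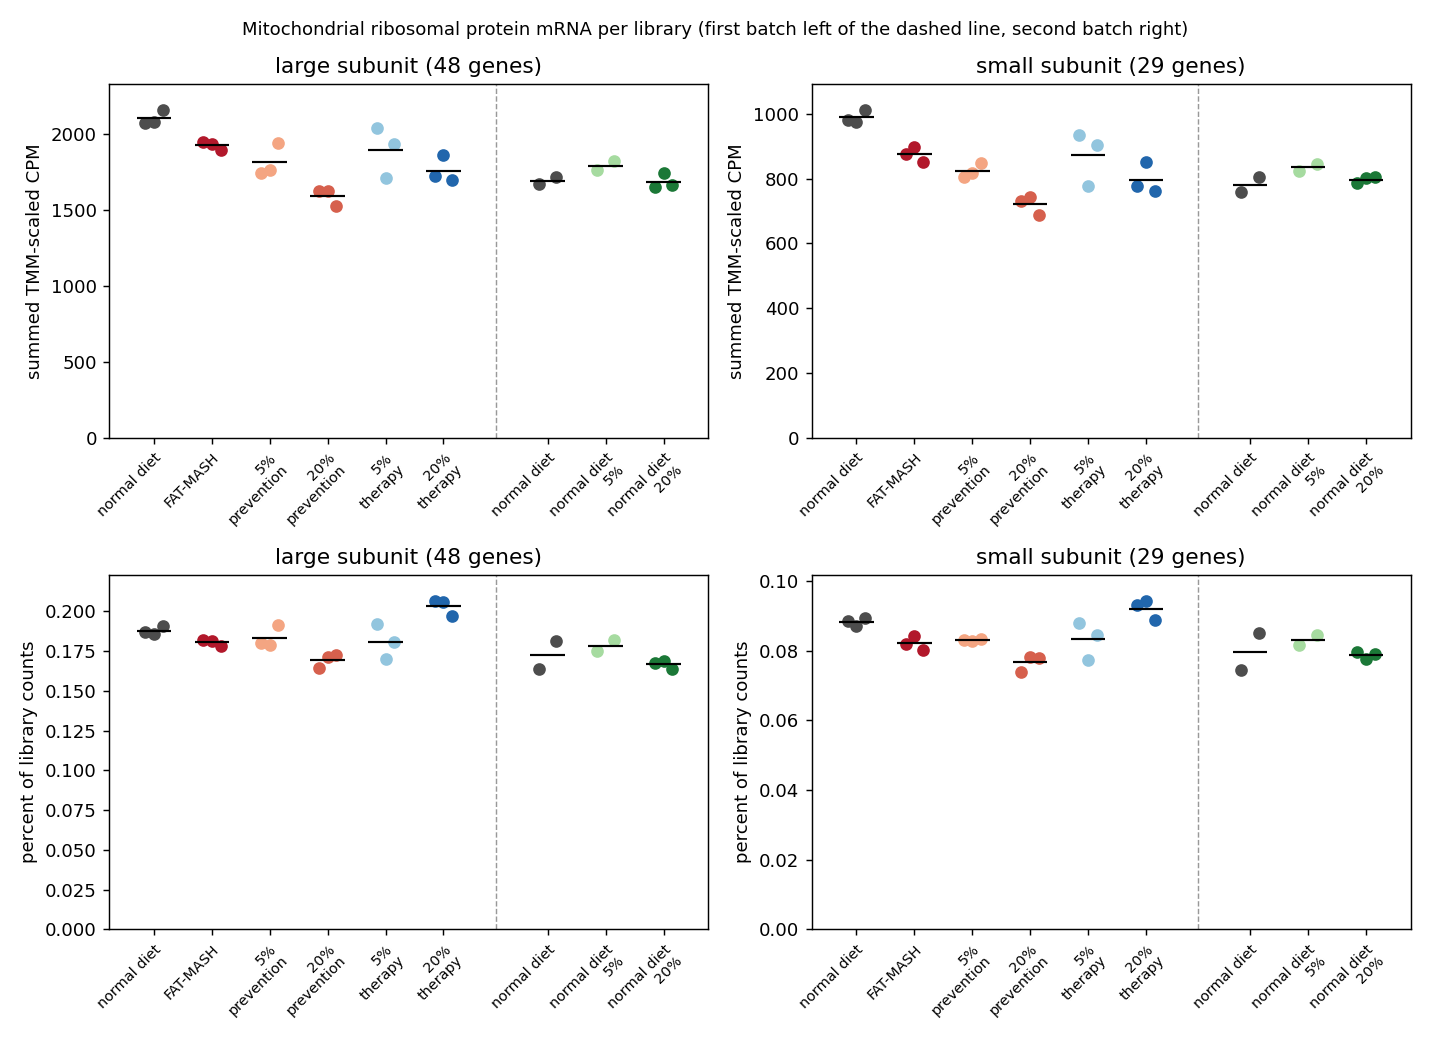
Summed level of large-subunit (left) and small-subunit (right) messages in each library, as TMM-scaled CPM (top) and as percent of the library's counts (bottom), with points for libraries and bars for group means. The 20% prevention libraries are the lowest of the first batch in CPM, whereas 20% therapy lies below FAT-MASH in mean CPM and is the highest group as a share of counts.

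FAT-MASH against normal diet asks what the regimen did to the liver. By the quasi-likelihood test of edgeR, with p-values adjusted after Benjamini and Hochberg and a threshold of 0.05, 7 of the 77 genes were lower (9.09%) and 0 higher, where 5.92% of all genes tested were lower and 7.81% higher. At an unadjusted p under 0.05, 2 were higher and 20 lower. The share of all genes at that threshold was not computed, here or below, so the adjusted shares are no background for such counts. DESeq2 also called 0 higher. The called genes were Mrpl15, Mrpl34, Mrpl36, Mrpl38 and Mrpl49 of the large subunit and Mrps18b and Mrps27 of the small subunit. The median log2 fold change was -0.11 for the large subunit and -0.18 for the small subunit, beside 0.03 for all genes. Under library totals the medians were -0.03 and -0.10, beside 0.10 for all genes. In 29 of 77 genes all 3 FAT-MASH libraries lay below all 3 of normal diet, as in 15.1% of all genes tested.

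Mrps27, a pentatricopeptide repeat protein of the small subunit, read 33.2, 35.5 and 39.5 CPM on normal diet and 20.4, 18.2 and 22.7 in FAT-MASH. The groups did not overlap, and the log2 fold change was -0.82 ± 0.13 (SE; adjusted p = 2e-04 by edgeR). Its level stayed between 16.3 and 25.3 CPM in all 12 libraries of mannose on the regimen, below each normal diet library of that batch. An antisense transcript shares 24.2% of its exon bases.

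Mrpl34, of the large subunit, read 63.2, 58.8 and 60.3 CPM on normal diet and 37.8, 36.4 and 41.8 in FAT-MASH, a log2 fold change of -0.65 ± 0.14 (SE; adjusted p = 0.00342 by edgeR). Mrpl49 read 41.5, 39.2 and 46.7 CPM on normal diet against 29.6, 32.8 and 28.4, which gave -0.49 ± 0.11 (adjusted p = 0.00447). Normal diet and FAT-MASH were separate for each of them. Mrpl15 changed by -0.46, Mrpl38 by -0.44 and Mrpl36 by -0.36 on the log2 scale. The calls for Mrpl36 and Mrpl38 were lost when some single libraries were left out (adjusted p up to 0.0884 and 0.0725), namely normal diet replicate 3 or FAT-MASH replicate 3 for Mrpl36, and normal diet replicate 1 or FAT-MASH replicate 3 for Mrpl38.

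In FAT-MASH, macrophage markers rose in 5 of 7 and stellate markers in 5 of 6, with macrophage marker sums of 426 to 761 CPM against 197 to 205 on normal diet and stellate sums of 431 to 548 against 232 to 285. All 7 and all 6 of these markers were above 0. Neutrophil markers rose in 2 of 4 (sums of 8.87 to 11 CPM against 2.94 to 4.38), endothelial markers in 1 of 5 and lymphocyte markers in 1 of 7. Hepatocyte markers fell in 2 of 10 and rose in 1, with sums of 94600 to 105000 CPM against 103000 to 116000. The part of these shifts in the changes of the ribosomal protein genes was not tested.

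Mannose at 20% for all 12 weeks gave the most calls among these genes in the comparisons with FAT-MASH under TMM scaling. Under library totals 20% therapy gave more, 17 higher and 1 lower (of all genes, 27.6% and 5.69%). With 20% prevention 1 was then higher and 8 lower (of all genes, 3066 of 19571 and 4.85%). With TMM scaling and 20% prevention, 26 of 77 genes were lower (33.8%), where 8.26% of all genes tested were lower, and 1 was higher, where 6.83% of all genes were higher. Of the 26, 16 were large-subunit and 10 small-subunit genes (33.3% and 34.5% of each subunit). The direction was shared by 72 of the 77, and the median log2 fold change was -0.29 for the large subunit and -0.25 for the small subunit, beside 0.01 for all genes. In 46 of 77 genes all 3 libraries with 20% prevention lay below all 3 FAT-MASH libraries, which was so for 16.2% of all genes tested.

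Mrps35, a mitochondria-specific protein of the small subunit head, read 39.9, 37.3 and 35 CPM in FAT-MASH and 26.5, 26.2 and 26.7 with 20% prevention. The log2 fold change was -0.50 ± 0.09 (SE; adjusted p = 0.000948 by edgeR). Its gene spans 146944262 to 146975489 of chromosome 6 on GRCm39 (plus strand, ENSMUSG00000040112.10) and shares no exon base with another gene. Mrps24, the homologue of bacterial S3 at the messenger entry, read 63.6, 69.6 and 66.3 CPM against 46.1, 50.7 and 41.5, a change of -0.53 ± 0.10 (adjusted p = 0.00133). Groups were apart in both genes. Mrps24 lies on chromosome 11, 5653983 to 5665680 (minus strand, ENSMUSG00000020477.11), and 15.4% of its exon bases are shared with Urgcp on the same strand.

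Mrps28, the homologue of bacterial S1, went from 34.2, 37.3 and 33.8 CPM to 25.5, 25.8 and 21 (log2 fold change -0.54 ± 0.11, SE; adjusted p = 0.00196 by edgeR). Mrpl13 went from 48.9, 53.9 and 52.3 CPM to 39.4, 39.7 and 36.9, a change of -0.42 ± 0.08 (adjusted p = 0.00193). Mrpl4, a protein that lines the exit tunnel, went from 50.4, 52.2 and 51.4 CPM to 35.6, 34.1 and 41.4 (-0.47 ± 0.10; adjusted p = 0.00218). None of these 3 genes had a library of one group within the range of the other. Mrpl58, a peptidyl-tRNA hydrolase built into the large subunit that can free stalled chains, went from 31.6, 30.3 and 31.3 CPM to 21.7, 23.4 and 22.6 (-0.46 ± 0.10; adjusted p = 0.00418). Its FAT-MASH and 20% prevention libraries were also separate.

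The largest fall was that of Mrpl18, a large-subunit protein of the uL18 family, at -0.70 ± 0.16 on the log2 scale (SE; adjusted p = 0.00612 by edgeR). Its FAT-MASH libraries read 68.8, 48.1 and 45.8 CPM and those with 20% prevention 32.1, 31.1 and 37.2. The first FAT-MASH library stood well above the other two, and without it the adjusted p was 0.0523. Mrpl12 went from 147, 161 and 154 CPM to 121, 120 and 116, a change of -0.37 ± 0.10 (adjusted p = 0.0164), with the groups apart. That call was lost without FAT-MASH replicate 2 or without 20% prevention replicate 3 (adjusted p up to 0.075).

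**Figure D2:**
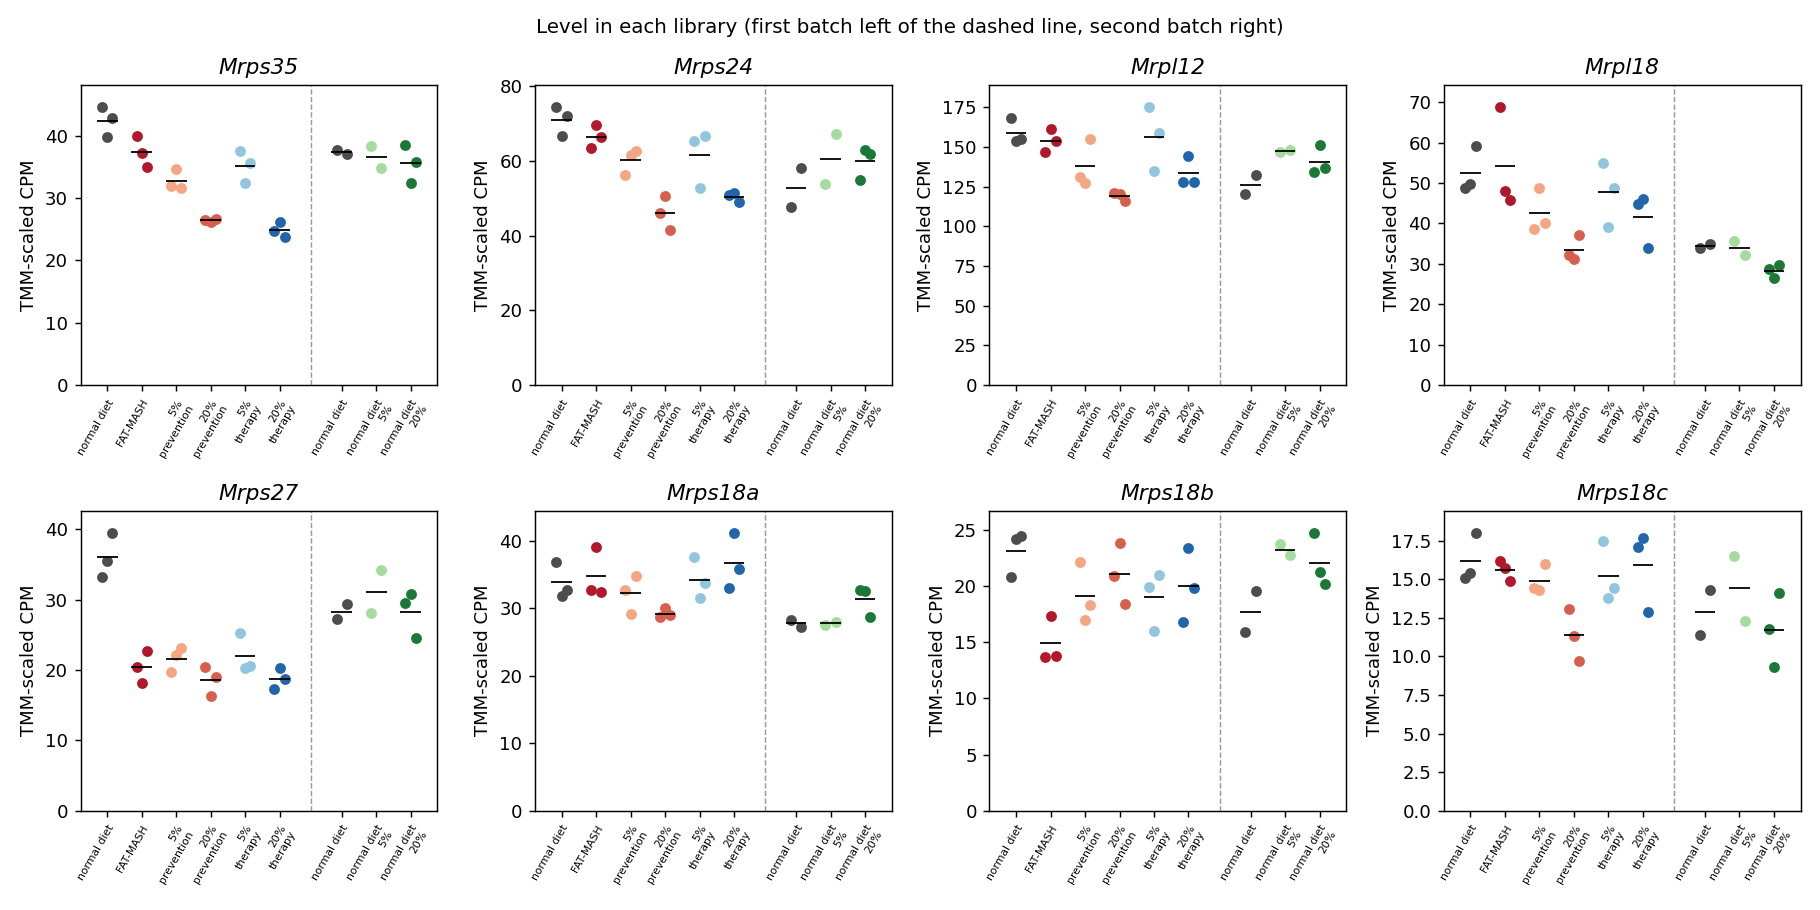
Level of 8 genes in each library as TMM-scaled CPM, with points for libraries and bars for group means, and the second batch right of the dashed line. In the first batch Mrps35 and Mrps24 lie lowest in the 20% prevention and 20% therapy libraries, while Mrps18b has its lowest mean in FAT-MASH and Mrps27 is low in every group on the regimen.

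Mrps18b was the exception. It is 1 of 3 related genes, Mrps18a, Mrps18b and Mrps18c, whose proteins take different places in the ribosome. It was lower in FAT-MASH (13.7, 17.3 and 13.8 CPM) than on normal diet (20.8, 24.2 and 24.4 CPM), with a log2 fold change of -0.63 ± 0.15 (SE; adjusted p = 0.0085 by edgeR). With 20% prevention it read 20.9, 23.8 and 18.4 CPM, which was higher than FAT-MASH by 0.49 ± 0.15 (adjusted p = 0.0328), and these comparisons share the FAT-MASH libraries. The call against FAT-MASH was lost when any of 4 libraries was left out, namely replicates 1 and 3 of FAT-MASH and replicates 1 and 2 of 20% prevention, and adjusted p over all alternatives ran from 0.00252 to 0.158. In the other mannose groups the changes from FAT-MASH were 0.36 with 5% prevention (adjusted p = 0.259) and 0.42 with 20% therapy (adjusted p = 0.0544). Mrps18b shares 30.5% of its exon bases with an antisense transcript, Gm16279, which had a median of 28 counts.

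Its relatives did otherwise. Mrps18c read 16.2, 15.7 and 14.9 CPM in FAT-MASH and 13.1, 11.3 and 9.7 with 20% prevention, a fall of -0.46 ± 0.15 on the log2 scale (SE; adjusted p = 0.0379 by edgeR). That call was lost in 5 of 6 fits that left out 1 library, all but the one without 20% prevention replicate 1. Mrps18a read 32.7, 39.1 and 32.5 CPM against 28.7, 30 and 29, with a change of -0.25 ± 0.11 that did not pass (adjusted p = 0.149).

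Further members named for their roles gave these values. Mrps7, of the uS7 family, passed with 20% prevention (log2 fold change -0.32 ± 0.10, SE; adjusted p = 0.0337 by edgeR), though in none of the 6 fits without 1 library (adjusted p 0.0621 to 0.135). Mrpl44 (-0.36, adjusted p = 0.0504), Mrps16 (-0.37, adjusted p = 0.12), Mrpl3 (-0.25, adjusted p = 0.151) and Mrps2 (-0.22, adjusted p = 0.216) did not. Mrps22 had a change of 0.07 with 20% prevention (adjusted p = 0.746) and its highest first-batch value, 37.7 CPM, in 1 library with 5% prevention. Mrpl45, which anchors the ribosome at the inner membrane, had a change of -0.10 (adjusted p = 0.539), Mrps5 one of -0.17 (adjusted p = 0.382) and Mrps12, a protein of the decoding centre, one of -0.19 (adjusted p = 0.407). Mrps36 had 0.31 ± 0.35 (adjusted p = 0.636).

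The fall with 20% prevention depended on single libraries in its count and less in its size. Without 20% prevention replicate 3, 11 genes were lower. There were 12 without FAT-MASH replicate 2, 14 without FAT-MASH replicate 1 and 17 without 20% prevention replicate 2. Of all 20311 to 20365 genes of these 4 fits, in the same order, 1257, 1189, 1246 and 1112 were lower. Large-subunit medians stayed between -0.31 and -0.25 in these fits and small-subunit medians between -0.29 and -0.24. Mrpl4, Mrpl11, Mrpl13, Mrpl27, Mrpl58, Mrps24, Mrps26, Mrps28 and Mrps35 passed in all 6. With library totals in place of TMM scaling, where the median of all genes was 0.20, 8 genes were lower (of all genes, 4.85%) and the subunit medians were -0.10 and -0.07. Relative to the median of all genes the large subunit stood at -0.30 under either scaling, a distance that a change of scaling leaves nearly fixed.

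**Figure D3:**
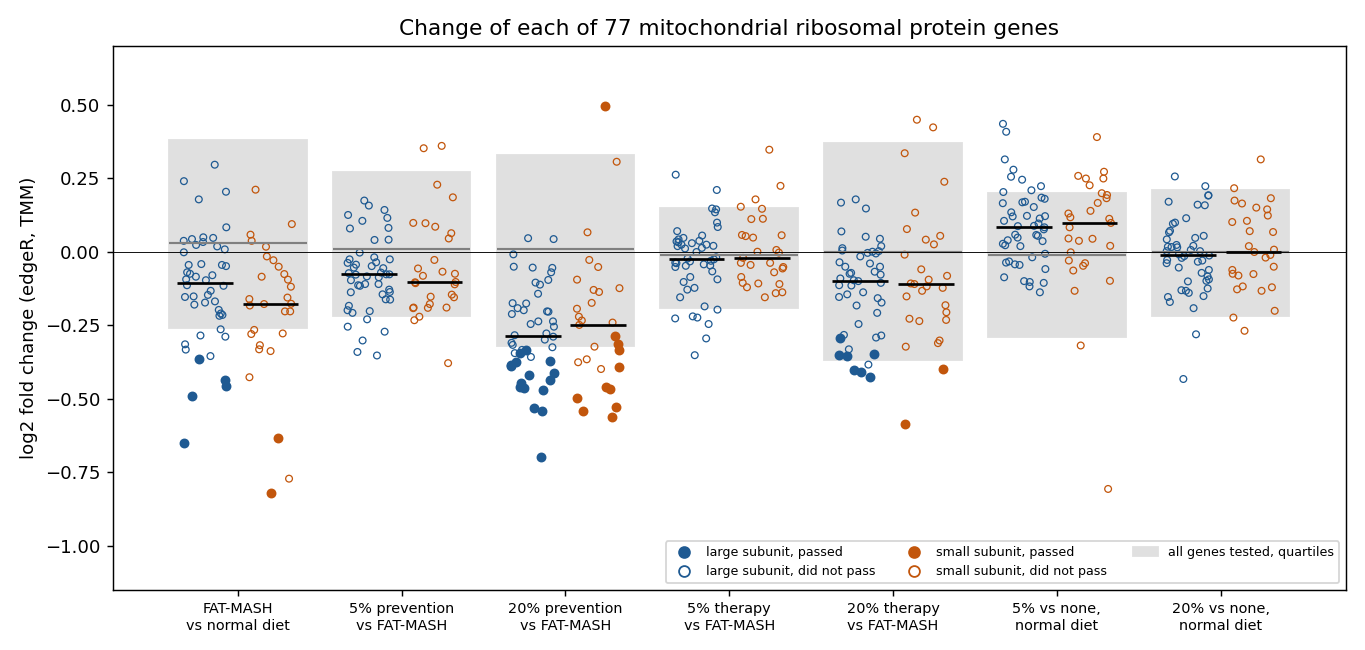
Log2 fold change of each of the 77 genes in 7 comparisons (edgeR, TMM), large subunit in blue and small in orange, filled where the adjusted p was under 0.05, with black bars for medians and grey boxes for the quartiles of all genes tested. The column for 20% prevention holds 26 filled points below 0 and 1 above. With library totals as scaling the points for 20% therapy move up to medians of 0.20 and 0.19.

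Mannose at 5% for 12 weeks changed none of the 77 genes by the test. For 5% prevention 0 were higher and 0 lower, where 0.966% and 1.31% of all genes were, with 2 and 4 at an unadjusted p under 0.05. DESeq2 called 1 higher, Mrps22, beside 436 of all 19571 genes. Medians were -0.08 and -0.10 for the large and small subunit, beside 0.01 for all genes. Under library totals they were 0.03 and 0.01, beside 0.11 for all genes, so their direction turned with the scaling. Between the prevention doses, 20% against 5%, edgeR called 0 (0.107% of all genes higher and 0.337% lower). At an unadjusted p under 0.05, 0 were higher and 25 lower, with no share of all genes computed. DESeq2 called 8 lower, beside 396 of all 19571 genes. All 29 genes whose libraries did not overlap were lower at 20%, and 9.01% of all genes did the same. Mrpl58 came nearest to the threshold, at -0.46 ± 0.10 (SE; adjusted p = 0.0507 by edgeR), with 29.7, 31.2 and 32.2 CPM at 5%.

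Therapy gave mannose for the last 6 weeks only. With TMM scaling 9 genes were lower in 20% therapy than in FAT-MASH (11.7%) and 0 higher, where 11.3% of all genes were lower and 10.2% higher, so the members' share was near the background. All 3 libraries with 20% therapy lay below all 3 of FAT-MASH in 21 of 77 genes, and in 18.9% of all genes. At an unadjusted p under 0.05, 2 were higher and 18 lower, and DESeq2 called 1 higher, beside 2345 of all 19571 genes. Medians were -0.10 for the large subunit and -0.11 for the small subunit with TMM scaling, and 0.20 and 0.19 with library totals, where 17 were higher (of all genes, 27.6%) and 1 lower (of all genes, 5.69%) and the median of all genes was 0.30. The direction of the set against FAT-MASH in 20% therapy therefore turned with the scaling. Its distance from the median of all genes was -0.10 for the large subunit under both. A change of scaling shifts all genes of a comparison nearly alike, so that distance could hardly differ and tests nothing. Without FAT-MASH replicate 2, 4 genes were lower, and 5 without 20% therapy replicate 1 or 3. In these fits 1736 of 20345, 1640 of 20309 and 1718 of 20327 of all genes were lower.

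Mrps35 had the smallest adjusted p in 20% therapy. It read 24.8, 26.1 and 23.8 CPM against 39.9, 37.3 and 35 in FAT-MASH, a log2 fold change of -0.59 ± 0.09 (SE; adjusted p = 0.000107 by edgeR). Under library totals the change was -0.28, still past the threshold (adjusted p = 0.0214). Mrpl4 read 35.4, 41.7 and 37.4 CPM (-0.43 ± 0.10; adjusted p = 0.00285), Mrpl9 37.5, 40.4 and 35.4 CPM (-0.40 ± 0.10; adjusted p = 0.00473) and Mrps24 50.9, 51.4 and 49.1 CPM (-0.40 ± 0.10; adjusted p = 0.0071). All 4 genes had every 20% therapy library below every FAT-MASH library. Calls for Mrpl4, Mrpl9 and Mrps24 were lost under library totals (adjusted p = 0.358, 0.382 and 0.454).

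Side by side, Mrpl4, Mrpl9, Mrpl27, Mrpl46, Mrpl49, Mrps24 and Mrps35 were called lower in both 20% groups, 7 of the 26 genes lower with prevention and 7 of the 9 lower with therapy. With 20% prevention the calls for Mrpl46 were lost in all 6 fits that left out 1 library, and those for Mrpl9 and Mrpl49 in 4 of 6, all but those without replicate 3 of FAT-MASH or replicate 1 of 20% prevention. With 20% therapy Mrpl46 lost its call in 5 of 6, all but the fit without 20% therapy replicate 2. Mrpl27 lost it there in 4 of 6, all but those without replicate 1 of either group, and Mrpl49 in 3 of 6, namely those without replicate 2 of FAT-MASH and without replicate 1 or 2 of 20% therapy. With the replicate number as a block Mrpl46 and Mrpl49 lost their calls with prevention, and Mrpl46 with therapy. The same FAT-MASH libraries served in both comparisons. Mrpl49, also called lower in FAT-MASH than on normal diet, had means of 42.5 CPM on normal diet, 30.2 in FAT-MASH, 23.8 with 20% prevention and 23.7 with 20% therapy. A direct test of 20% therapy against 20% prevention called 0 genes (0.0255% of all genes higher and 0.0562% lower). At an unadjusted p under 0.05, 17 were higher and 0 lower, with no share of all genes computed. DESeq2 called 3 higher, beside 164 of all 19571 genes. Medians of that difference were 0.13 for each subunit. Mrps28 was nearest to the threshold there, with 30.8, 34.8 and 32.1 CPM in therapy and 25.5, 25.8 and 21 in prevention (0.44 ± 0.11, SE; adjusted p = 0.0964 by edgeR).

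Therapy at 5% called 0 genes against FAT-MASH (0.0255% of all genes higher and 0.0102% lower), with 1 higher and 2 lower at an unadjusted p under 0.05 and 0 by DESeq2. Between the therapy doses 4 genes were lower at 20% (5.19%) and 0 higher, where 9.33% of all genes were lower and 8.33% higher. These were Mrps35 (-0.50 ± 0.09, SE; adjusted p = 0.000664 by edgeR), Mrpl4 (-0.45; adjusted p = 0.00233), Mrps5 (-0.41; adjusted p = 0.021) and Mrpl9 (-0.32; adjusted p = 0.0271). The count was 10 without 5% therapy replicate 2, whose summed level was the lowest of its group, and 2 without 5% therapy replicate 1 or 3 or 20% therapy replicate 1. In these fits, in the same order, 1740 of 20338, 1441 of 20349, 1344 of 20392 and 1236 of 20309 of all genes were lower. Under library totals 0 of them passed and 16 genes were higher, where 24.2% of all genes were higher.

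**Figure D4:**
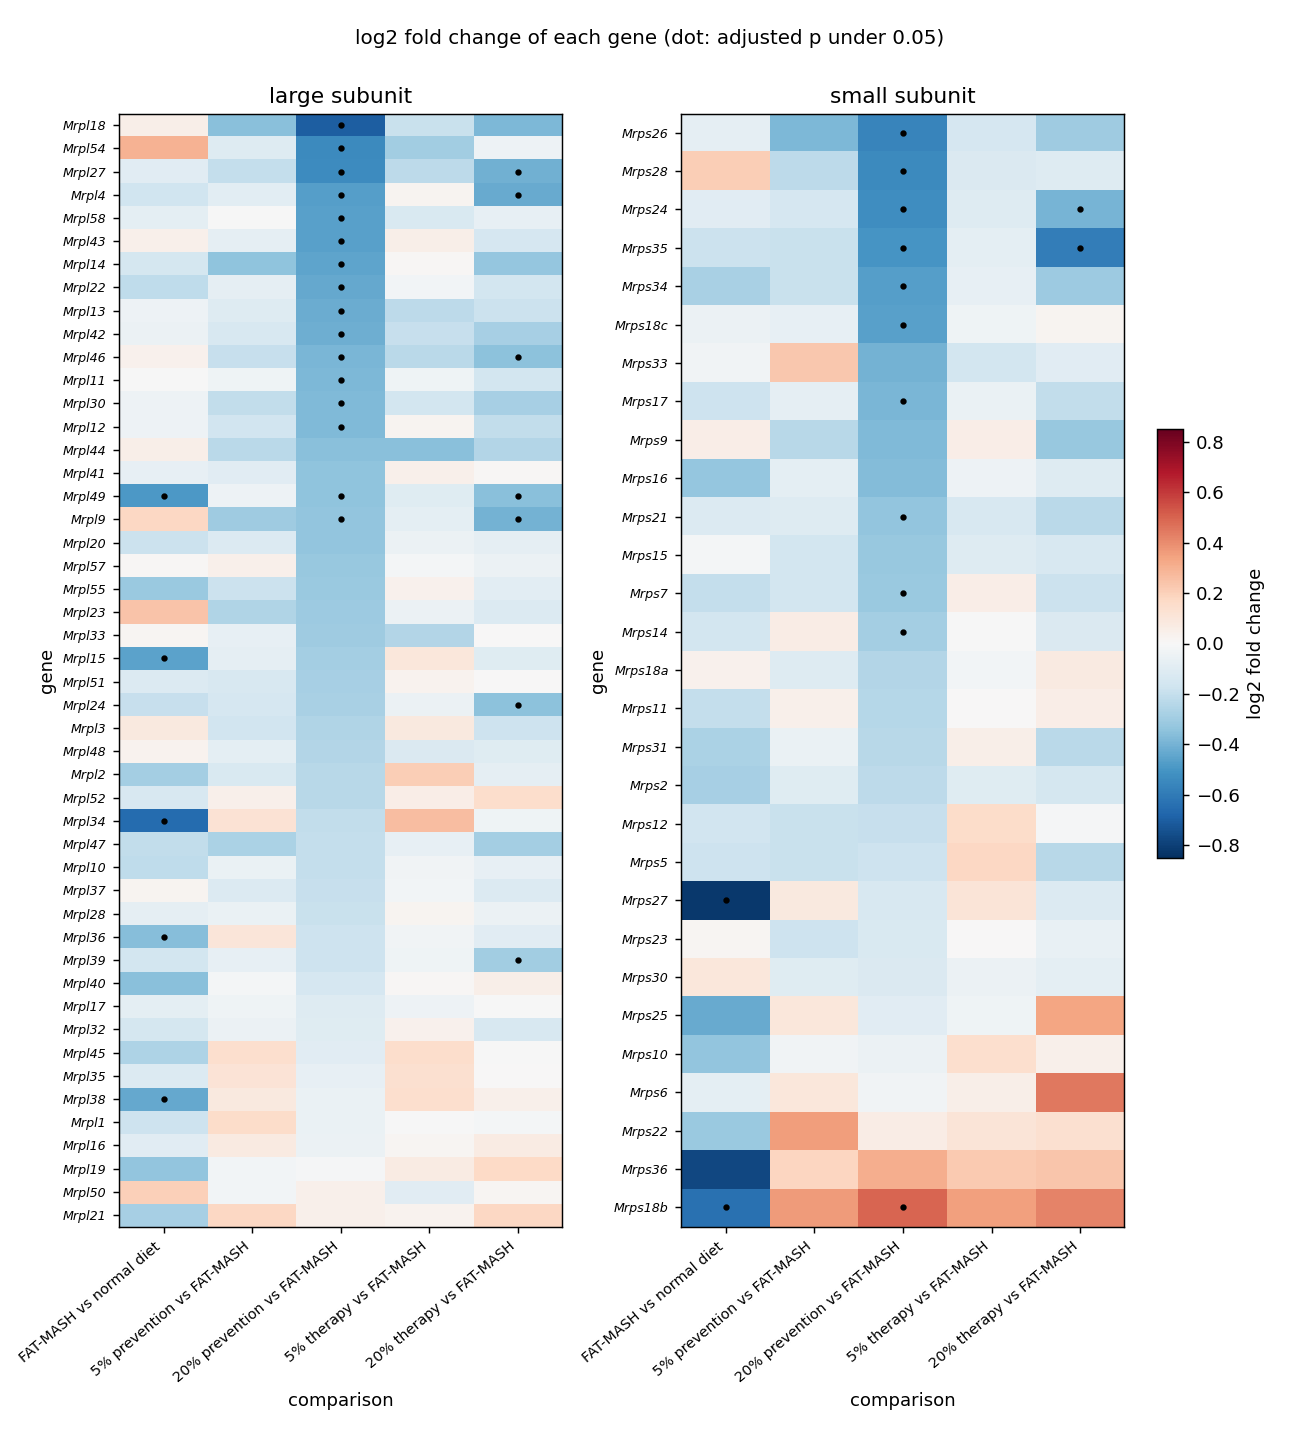
Log2 fold change (colour, edgeR with TMM) of each gene in 5 comparisons of the first batch, ordered within a subunit by the change with 20% prevention, with dots where the adjusted p was under 0.05. The column for 20% prevention is blue for 72 of 77 genes and has 27 dots, while Mrps18b is red in all 4 mannose columns and blue in the FAT-MASH column. With library totals as scaling, 64 of 77 genes are above 0 in 20% therapy.

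Mannose without the regimen was given in the second batch. Against normal diet, 5% mannose called 0 of the 77 genes (0% of all genes in either direction), with 2 higher and 0 lower at an unadjusted p under 0.05 and 0 by DESeq2. With 20% mannose 0 were called (0.00542% of all genes higher and 0% lower), with 0 higher and 2 lower at an unadjusted p under 0.05 and 0 by DESeq2. Mrps35 read 37.8 and 37.1 CPM on normal diet and 38.5, 32.4 and 35.8 with 20% mannose, with overlap. Mrpl12 read 120 and 132 CPM on normal diet, 147 and 148 with 5% mannose and 134, 151 and 137 with 20% mannose, all above normal diet. Its changes of 0.22 ± 0.12 and 0.16 ± 0.10 did not pass (SE; adjusted p = 0.872 and 0.944 by edgeR). Groups of 2 and 3 libraries limit what these comparisons could detect.

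The effect of 20% mannose for 12 weeks on the regimen minus its effect on normal diet was tested in all 25 libraries with a batch term. By the test, 2 of 77 genes (2.6%) had a difference called lower and 0 one called higher, where 3.41% of all genes were called lower and 2.26% higher. Mrps24 had a difference of -0.71 ± 0.17 on the log2 scale (SE; adjusted p = 0.0127 by edgeR): its mean was 66.5 ± 2.99 CPM (SD, n = 3) in FAT-MASH and 46.1 ± 4.6 (n = 3) with 20% prevention, but 52.8 ± 7.44 (n = 2) on normal diet and 59.9 ± 4.3 (n = 3) with 20% mannose. Mrpl12 had one of -0.53 ± 0.15 (adjusted p = 0.0319). Medians of the difference were -0.27 for the large subunit and -0.30 for the small subunit, and -0.05 and -0.07 under library totals, where all genes had 0.23 and 0 members passed. Without normal diet replicate 4, 0 members passed, beside 348 lower and 197 higher of all 21217 genes. Mrpl12 also lost its call when replicate 2 or replicate 3 was left out of any of 3 groups: FAT-MASH, 20% prevention, and normal diet with 20% mannose. The batch term was set by the 5 normal diet libraries. The normal diet side of this difference therefore rests on the 2 second-batch libraries without mannose and the 3 with 20% mannose. Leaving out normal diet replicate 1, 2 or 3 kept the medians at -0.27 and -0.29.

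Other genes of the pathway give the setting. With 20% prevention 8.26% of all genes were lower and 6.83% higher, and with 20% therapy 11.3% were lower and 10.2% higher. Under library totals 4.85% of all genes were lower and 3066 of 19571 higher with prevention, and 5.69% lower and 27.6% higher with therapy. One list, of nuclear-encoded subunits of respiratory complexes I to IV, includes partners of the proteins that this ribosome makes. Its genes fell in 51 of 60 cases with 20% prevention (median log2 fold change -0.52) and in 39 of 60 with 20% therapy (median -0.44). Under library totals 43 fell with prevention (median -0.34), and with therapy 12 fell and 1 rose (median -0.14). In FAT-MASH against normal diet 1 of them, Cox7a2l, rose and 0 fell. Examples with 20% prevention are Sdhb of complex II (-0.79 ± 0.09, SE; adjusted p = 2.1e-05 by edgeR), Uqcrq of complex III (-0.71; adjusted p = 0.000172) and Ndufs3 of complex I (-0.69; adjusted p = 0.000197). The difference of the 20% effect between diets was called lower for 22 of the 60. ATP synthase subunits were not analysed here.

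Proteins that help to assemble the mitochondrial ribosome fell in 3 of 24 cases with 20% prevention (12.5%) and 4 of 24 with 20% therapy (16.7%). Medians were -0.20 and -0.19. Under library totals they were -0.02 and 0.11, with 0 lower in either and 4 higher with therapy, where 27.6% of all genes were higher. With TMM scaling the genes lower with prevention were Mtg2, Malsu1 and Mettl17, and those lower with therapy Mterf4, Mtg2, Ngrn and Malsu1. Mtg2, an assembly GTPase, had -0.43 ± 0.10 with prevention (SE; adjusted p = 0.00485 by edgeR) and Malsu1, which binds Mrpl14 on the large subunit, -0.35 (adjusted p = 0.0249). Of 5 ribosome components with other names 2 fell with prevention, Aurkaip1 (-0.52; adjusted p = 0.000758) and Chchd1 (-0.41; adjusted p = 0.0247). Translation factors fell in 2 of 14, the elongation factor Tufm (-0.55 ± 0.09; adjusted p = 0.00042) and the insertase Oxa1l (-0.49; adjusted p = 0.000591), and with 20% therapy in 3, those and Mtif3. Under library totals 2 fell with prevention (median 0.09), and with therapy 1 fell and 1 rose (median 0.08, against -0.22 with TMM).

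Mitochondrial tRNA synthetases showed 1 fall, Fars2 (-0.52; adjusted p = 0.00373 by edgeR), and 1 rise, Ears2 (0.39; adjusted p = 0.0274), of 17 with 20% prevention. In FAT-MASH against normal diet Nars2 (-0.85 ± 0.16, SE; adjusted p = 0.00127), Aars2, Ears2 and Vars2 fell and Iars2 rose. These are 23.5% lower and 5.88% higher, beside 5.92% and 7.81% of all genes. Under library totals 2 synthetases fell and 1 rose in that comparison. Among 17 genes that copy, transcribe or process mitochondrial DNA and RNA, 3 fell with 20% prevention: Hsd17b10, a subunit of mitochondrial RNase P (-1.06 ± 0.11; adjusted p = 6e-06), Polg2, a subunit of the mitochondrial DNA polymerase (-1.02; adjusted p = 0.00158), and Ssbp1, which coats single-stranded mitochondrial DNA (-0.38; adjusted p = 0.0431). Under library totals, with 20% prevention, 2 of these 17 fell and 1 rose, and of the synthetases 0 fell and 2 rose. Import and chaperone genes fell in 5 of 16, Timm44, Hspe1, Grpel1, Tomm22 and Tomm40, though 0 of 16 fell under library totals.

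The cytosolic ribosome moved partly with the mitochondrial one. Its proteins fell in 10 of 77 cases with 20% prevention (13%), beside 8.26% of all genes, with a median of -0.27. Under library totals the median was -0.09 with 2 lower and 1 higher, where 949 of all 19571 genes were lower and 3066 higher. With 20% therapy 0 fell and 2 rose (median 0.00). Under library totals 24 were then higher (median 0.30), where 27.6% of all genes were higher and their median was also 0.30. Genes of the nucleolus, where cytosolic ribosomes are assembled, went up. With 20% prevention 7 of 27 rose (25.9%, median 0.29) and with 20% therapy 12 (44.4%, median 0.39), beside 6.83% and 10.2% of all genes. Under library totals 15 rose with prevention, beside 3066 of 19571 genes, and 23 with therapy, beside 27.6% of all genes. Nop58, a box C/D ribonucleoprotein, had 1.11 ± 0.15 with prevention (SE; adjusted p = 8.5e-05 by edgeR) and 1.39 ± 0.15 with therapy.

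Regulators known for the nuclear genes of mitochondria did not move as one. Ppargc1a, the coactivator PGC-1alpha, was higher in FAT-MASH than on normal diet (0.81 ± 0.25, SE; adjusted p = 0.0346 by edgeR) and lower than FAT-MASH with 20% prevention (-0.80 ± 0.25; adjusted p = 0.0312) and 20% therapy (-1.26 ± 0.25; adjusted p = 0.000977). Esrra, its nuclear receptor partner, was lower with both (-0.42 and -0.38; adjusted p = 0.0182 and 0.022), while the related coactivator Pprc1 was higher with both (0.86 and 0.90; adjusted p = 0.0102 and 0.00516). Nrf1 (0.10; adjusted p = 0.64) and Gabpa (-0.03; adjusted p = 0.917) did not pass with 20% prevention. Yy1 was higher in FAT-MASH than on normal diet (0.28; adjusted p = 0.0383) and had -0.14 with 20% prevention (adjusted p = 0.323). Under library totals 1 of the 9 regulators in the list was higher and 0 lower with 20% prevention, and 3 were higher and 1 lower with 20% therapy.

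**Figure D5:**
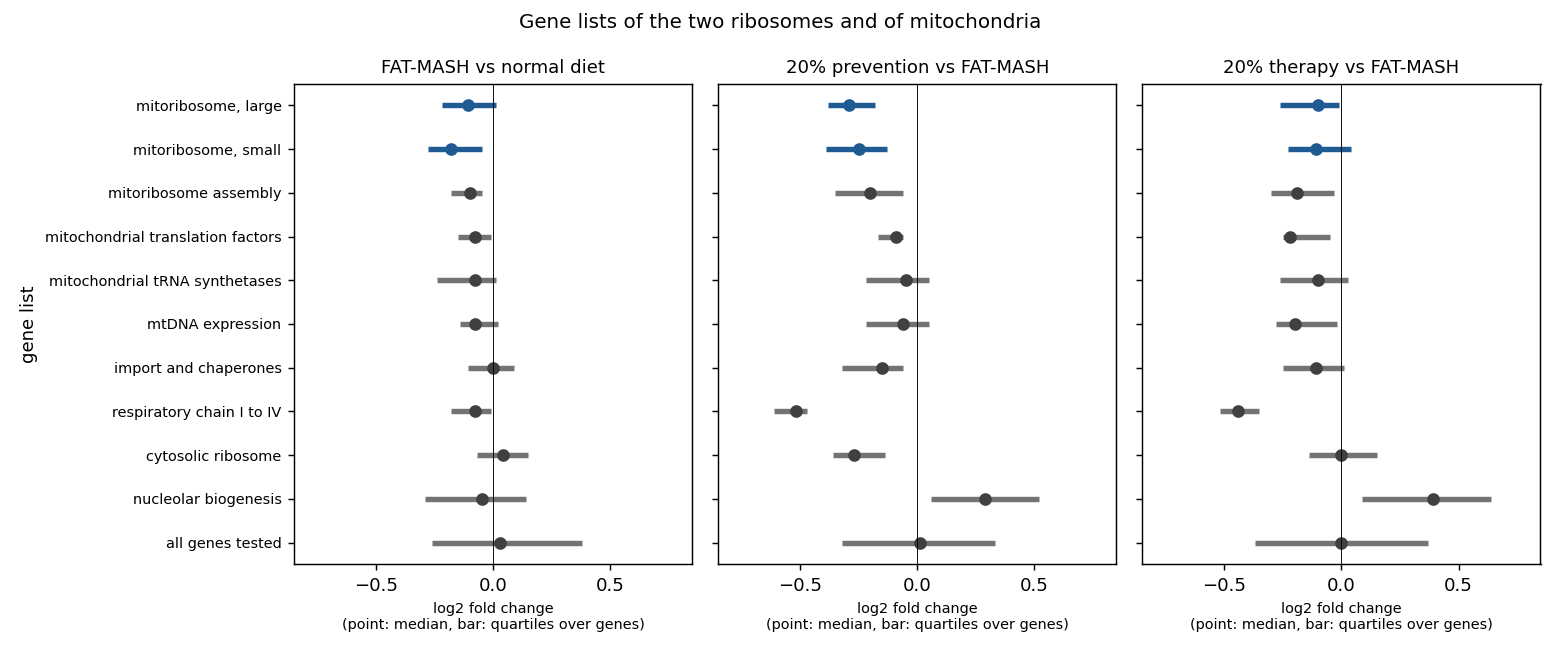
Median (point) and quartiles (bar) of the log2 fold change over the genes of each list in 3 comparisons (edgeR, TMM), with both subunits of the mitochondrial ribosome in blue. With 20% prevention the subunits lie at -0.29 and -0.25, between all genes at 0.01 and respiratory complexes I to IV at -0.52. With library totals as scaling the subunit medians in 20% therapy are 0.20 and 0.19.

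Marker messages of cell division and of liver cell types moved with the 20% groups, and some also with 5% prevention. Whether the numbers of cells changed was not tested. Cell division genes rose in 10 of 10 cases with both 20% groups. Their summed levels were 11 to 16.7 CPM in FAT-MASH, 91 to 109 with 20% prevention and 132 to 416 with 20% therapy, and none of the 10 was at 0. Hepatocyte markers fell in 6 of 10 with 20% prevention and 8 of 10 with 20% therapy (4 and 5 under library totals). Their sums were 94600 to 105000 CPM in FAT-MASH, 77900 to 95800 with 20% prevention and 64300 to 71700 with 20% therapy. Cholangiocyte markers rose in 4 of 6 and 5 of 6, with sums of 98.1 to 119, 206 to 531 and 166 to 752 CPM, and none at 0. Neutrophil markers rose in 0 of 4 and 3 of 4, with sums of 8.87 to 11 CPM in FAT-MASH, 11.7 to 23.7 with 20% prevention and 15.8 to 25.3 with 20% therapy. Stellate markers rose in 0 of 6 and 1 of 6, and endothelial markers fell in 0 of 5 and 1 of 5. Under library totals 4 stellate markers rose with 20% therapy, and 2 endothelial markers rose and 0 fell, where 27.6% of all genes were higher. With 20% prevention 1 neutrophil marker was then higher. Macrophage and lymphocyte markers had no call in either 20% group. With 5% prevention cell division genes rose in 6 of 10, with sums of 31.9 to 51.6 CPM. Hepatocyte markers fell in 3 of 10 there, with a median sum of 97500 CPM against 94900 in FAT-MASH. Cholangiocyte markers rose in 1 of 6, and the other marker lists had no call. Of all genes 0.966% were higher and 1.31% lower with 5% prevention. With 5% therapy no marker list had a call. Among the 100 genes of highest mean level, the median log2 fold change was -0.43 with 20% prevention and -0.62 with 20% therapy. The part of these shifts in the levels of the ribosomal protein genes was not tested.

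Across all 11 comparisons, 35 of the 77 genes passed in at least 1 and 42 in none.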

How the data were processed

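Poly-A RNA of 25 mouse livers was sequenced in 2 batches of 18 and 7 libraries. STAR, the GRCm39 build and featureCounts 2.0.6 are the tools and build of the submitters' processing notes. The table itself gives featureCounts 2.0.1 and GENCODE mouse release 31, per the file headers. Its values are the authors' raw counts, deposited per gene as whole numbers with no normalization. No strand, pairing or multi-mapping setting stands in the counting command of the header, so overlapping genes and near-identical copies are uncertain.

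Symbols were matched by gene ID. Counts were tested with edgeR 4.0.16 (R 4.3.3) by the quasi-likelihood test with TMM scaling, the filterByExpr filter and Benjamini-Hochberg adjustment at 0.05 over all genes tested: 19571 in the first batch, 18462 in the second, and 21373 in the fit of all 25 libraries with a batch term. CPM values carry the TMM factors of their own batch and are not comparable between batches. All 77 members passed each filter. The procedure was checked on simulated data in which the changes were known. These data gave all genes the same spread and held no shift of scaling between groups. The check therefore does not bear on the choice of scaling or on the weight of single libraries. Every pair of libraries within a group differed by more than sampling noise (the lowest chi-square was 19.3 per degree of freedom), and p-values measure the spread between these libraries.

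Named genes were a list of key members, the 4 smallest adjusted p per direction in a comparison, all called genes where there were 5 or fewer, the 3 highest and lowest levels per length, members called against their subunit's direction, and up to 3 genes of a described list. Genes outside this rule (Mrpl11, Mrpl14, Mrpl27, Mrpl46, Mrps26, the remaining genes of full counts) were named after their values were seen. The members and lists were chosen with earlier results of these data known. Alternatives were DESeq2 1.42.0, RLE size factors, library totals alone, no filter on low counts, only the groups compared, the replicate number as a block, and leaving out each library in turn. Promoters and their coordinates come from RefSeq on GRCm38.p6, and 9 members had no entry.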

Additional observations from a re-analysis of the deposited data

Results flagged for a closer look

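In 2 genes the effect of 20% mannose for 12 weeks differed between the diets by the test of that difference (edgeR, 25 libraries with a batch term). Both differences were called lower, which is 2.6% of the 77 members, where 3.41% of all genes were called lower. Mrps24 had a difference of -0.71 ± 0.17 on the log2 scale (SE; adjusted p = 0.0127): -0.53 on the FAT-MASH regimen, where all 3 libraries with mannose lay below all 3 without, and 0.18 on normal diet. Mrpl12 had a difference of -0.53 ± 0.15 (adjusted p = 0.0319): -0.37 on the regimen, with no overlap of the groups, and 0.16 on normal diet. Adjusted p over the alternatives ran from 0.00203 to 0.11 for Mrps24, which lost its call without normal diet replicate 4 and under library totals, and from 0.00896 to 0.176 for Mrpl12, whose call was also lost under library totals. The regimen was studied in the first batch and mannose on normal diet in the second, and what part the batch has in these differences was not tested beyond the batch term.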

How the results depend on the processing

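TMM scaling decided most. Under library totals alone, 1 member was higher in FAT-MASH than on normal diet (medians -0.03 and -0.10), 1 was higher with 5% prevention (medians 0.03 and 0.01), 8 were lower with 20% prevention (-0.10 and -0.07), and 17 were higher and 1 lower with 20% therapy (0.20 and 0.19). There 16 were higher and 0 lower in 20% against 5% therapy (0.18 and 0.21). In 20% therapy 6 were higher than in 20% prevention (0.25 and 0.25). The large-subunit median of 20% against 5% prevention was -0.10, and 0 passed for the difference between diets (-0.05 and -0.07). Of all 19571 genes, library totals called 1877 higher in FAT-MASH, 393 higher with 5% prevention and 949 lower with 20% prevention. With 20% therapy 5407 were higher and 1113 lower. In 20% against 5% therapy 4730 were higher (median of all genes 0.29), and in 20% therapy against 20% prevention 161 (median 0.12). In 20% therapy Mrpl39 then had 0.01 and Mrpl45 0.30 (adjusted p = 0.0172 by edgeR). DESeq2 called 1 higher with 5% prevention, 1 higher with 20% therapy and 8 lower in 20% against 5% prevention. Of all 19571 genes it called 436, 2345 and 396 there. It called 3 members higher in 20% therapy against 20% prevention (of all genes, 164) and 6 lower for the difference between diets (of 21373 genes, 1012). Without a filter on low counts, 16 were lower with 20% prevention, 1 was higher with 20% therapy and 1 higher in 20% therapy against 20% prevention. Of all 33409 genes of that fit, 1650, 2162 and 291 were called in the same directions. The causes were not tested.

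Leaving out each library in turn gave 11 to 20 lower and 0 to 1 higher with 20% prevention, and 4 to 8 lower and 0 to 1 higher with 20% therapy (large-subunit median -0.16 to -0.06). It gave 0 to 1 lower in 20% against 5% prevention (large-subunit median -0.22 to -0.11), 2 to 10 lower in 20% against 5% therapy (medians -0.17 to -0.04 and -0.19 to -0.02), a large-subunit median of -0.06 to 0.04 with 5% therapy, and 0 to 4 lower for the difference between diets. The difference between diets had 4 without normal diet replicate 5 or without replicate 1 of normal diet with 20% mannose. Of all genes tested in these fits, 1112 to 1378 were lower and 826 to 1207 higher with 20% prevention. With 20% therapy 1640 to 1981 were lower and 1432 to 1789 higher. In 20% against 5% prevention 0 to 72 were lower, and in 20% against 5% therapy 1236 to 1740. For the difference between diets 348 to 743 were lower. First-batch fits tested 20309 to 20392 genes and fits of the diet difference 21172 to 21321. The 1 gene higher with 20% prevention, Mrps18b, lost its call when any of 4 libraries was left out (replicates 1 and 3 of FAT-MASH, replicates 1 and 2 of 20% prevention).

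With the replicate number as a block, 23 members were lower with 20% prevention and 7 with 20% therapy, beside 1538 and 2131 of all 19571 genes. The numbers do not pair the samples: same-numbered libraries of different groups had correlations of -0.19 to 0.21 (median -0.02, 2 of 45 over 0.1), and 1 of 18 libraries was most like its own number. RLE size factors and fits of only the groups compared moved no count of members by more than 1.5 times. Groups held 2 or 3 libraries. As for depth, Mrps36 and Mrpl23 had at least 36 and 56 counts in every library and the other members at least 137.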
